A study of Mus musculus with 8 samples.

Results

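A set of 10 miRNAs known from microglia, other leukocytes and red cells was followed in spinal cord RNA from MLC/SOD1[G93A] animals, in which skeletal muscle expresses mutant SOD1. The members are mmu-miR-142-3p, mmu-miR-142-5p, mmu-miR-223, mmu-miR-150, mmu-miR-146a, mmu-miR-146b, mmu-miR-155, mmu-miR-21, mmu-miR-451 and mmu-miR-486, chosen by name, and all 10 were among the 375 miRNA assays of the TaqMan array card. Total RNA came from the ventral part of the lumbar cord, taken at 4 months of age. The wild type group was 4 samples of the FVB strain, numbered 1 to 4. The MLC/SOD1[G93A] group was 4 samples on the FVB background, numbered 5a to 8a, in which the muscle-specific Myosin Light Chain promoter drives the G93A form of SOD1. The control strain carries no transgene, so no group carried a wild type SOD1 transgene.

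miRNAs are short RNAs that pair with messenger RNAs through a seed near their 5′ end and lower their output. The spinal cord holds its own resident macrophages, the microglia, and RNA from whole tissue also holds what blood cells in its vessels contribute. miR-223 is the miRNA of granulocytes and other myeloid cells, miR-142 is made throughout the blood lineage, microglia included, and miR-150 belongs to mature lymphocytes. miR-146a, miR-146b, miR-155 and miR-21 are induced in inflammation, and miR-451 and miR-486 belong to red cells and their precursors, although miR-486 is also made in muscle. In bulk tissue, fewer cells of a type and less of the miRNA per cell cannot be told apart.

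The mature sequences of 8 of the 10 members were found in RefSeq on build GRCm38.p6 and are given so that the seeds can be compared, with the seed (bases 2 to 8 from the 5′ end) in capitals. Where a card name carried no arm, it was matched to the arm that the unmarked name denoted.
miR-142-3p: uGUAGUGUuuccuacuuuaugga
miR-142-5p: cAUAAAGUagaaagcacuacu
miR-223: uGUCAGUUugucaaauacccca
miR-146a: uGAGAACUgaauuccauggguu
miR-146b: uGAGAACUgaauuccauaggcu
miR-155: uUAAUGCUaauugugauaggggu
miR-21: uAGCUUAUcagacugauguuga
miR-451: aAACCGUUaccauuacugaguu
The 8 sequences held 7 different seeds, and the shared one was that of miR-146a and miR-146b. Those 2 differ at 2 of 22 bases, G18A and U21C, counted from the 5′ end with miR-146a first.

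Of the 8, 5 lie on chromosome 11. Both miR-142 arms come from 1 hairpin, miR-142-5p at chr11:87756867-87756887 and miR-142-3p at chr11:87756903-87756925, on the plus strand. miR-451 lies at chr11:78073186-78073207 on the plus strand, and the miR-144 hairpin begins the same stretch, ending 99 bases before the miR-451 hairpin. miR-21 lies on the minus strand at chr11:86584120-86584141, within the interval of the protein-coding gene Vmp1, and miR-146a on the minus strand at chr11:43374435-43374456. miR-223 lies on the plus strand at chrX:96242884-96242905 within the long non-coding RNA F630028O10Rik. miR-155 lies on the plus strand at chr16:84714143-84714165 within the non-coding host gene Mir155hg, and miR-146b on the plus strand at chr19:46342790-46342811 within the long non-coding RNA Gm36493.

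A Ct is the PCR cycle at which an assay crosses its threshold, so a lower Ct means more template, and 1 cycle was taken as a factor of 2. A Ct over 35 counted as not measured. Between 239 and 256 of the 375 miRNAs were measured per sample and 190 in all 8. Levels are log2 expression, a reference Ct minus the Ct of the miRNA, and were set against the mean of the 4 U6 wells of each sample or against the global mean, the mean Ct of those 190 miRNAs. The U6 mean spanned 16.88 to 18.50 cycles and the global mean 28.02 to 29.00 cycles across the samples. The U6 wells of samples 7a and 8a spread over 2.14 and 1.97 cycles, more than in any other sample. Differences are MLC/SOD1[G93A] minus wild type, fitted by limma over the 227 miRNAs measured in at least 3 samples of each group, and levels are compared only within 1 assay, since assays differ in efficiency, while differences are compared between miRNAs.

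With all samples kept, miR-223 had the largest difference between the groups among the 9 members tested; with wild type 1 left out that of miR-451 was larger. Relative to the global mean, its log2 expression was 1.99, 1.5, 3.17 and 1.81 in wild type samples 1 to 4 and 0.40, 0.10, 0.71 and 1.45 in samples 5a to 8a. Every MLC/SOD1[G93A] sample was below every wild type sample, with 8a and wild type 2 nearly touching. The means were 2.12 ± 0.73 and 0.67 ± 0.58 (SD, n = 4 each), a difference of -1.45 (SE 0.42), or 2.73-fold less miR-223 in MLC/SOD1[G93A] mice (95% interval 1.43 to 5.22). By limma the unadjusted p was 0.00632 and the Benjamini-Hochberg adjusted p over 227 miRNAs was 0.427, and the two-sided exact permutation p was 0.0286, the smallest that 4 against 4 samples can give. On this scale the difference was therefore past the spread between samples for miR-223 on its own and not after correction over the card. miR-223 was singled out as the largest of 9 differences, which its single p does not allow for.

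Relative to U6, miR-223 was at -9.56, -8.78, -6.50 and -8.06 in wild type samples 1 to 4 and at -9.88, -10.27, -11.10 and -8.86 in samples 5a to 8a. Wild type 1 lay among the MLC/SOD1[G93A] values on this scale. The difference was -1.80 (SE 0.70), with an unadjusted limma p of 0.0189, an adjusted p of 0.963 and an exact permutation p of 0.0571. On both scales miR-223 had the fourth lowest change of the 227 miRNAs tested. Its adjusted p was 0.0348 relative to U6 when wild type 1 was left out, and its unadjusted p rose to 0.101 on leaving out wild type 3 and to 0.0696 on leaving out sample 7a.

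No member passed an adjusted p of 0.05 in limma on either scale, where 0.0% of the 227 miRNAs passed in either direction. At an unadjusted p under 0.05, 1 of the 9 members tested was lower on the U6 scale and 1 on the global mean scale, miR-223 in both cases, beside 2.2% and 5.73% of all miRNAs tested, and no member was higher. Groups that did not overlap, with MLC/SOD1[G93A] lower, were found relative to the global mean for miR-223 alone among the members, beside 2.2% of all miRNAs tested, and relative to U6 for no member, beside 1.32%. Over the 9 tested members the median difference was -0.49 relative to U6, with all 9 below 0, while over all 227 miRNAs it was -0.31, with 176 below 0. With 1 sample left out, the members' median relative to U6 ran from -0.74 without wild type 1 to -0.22 without wild type 3. It was -0.23 without sample 7a. Relative to the global mean it was -0.14, with 6 of 9 below 0, and over all miRNAs 0.04, with 105 of 227 below 0. On that scale the sign of the members' median rested on single samples, at 0.02 without wild type 1 and 0.03 without sample 6a, and at -0.26 to -0.25 without wild type 2, wild type 4 or sample 7a. A change of reference adds the same amount to every miRNA measured in all samples, so it moved the members with the rest of the card.

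**Figure D1:**
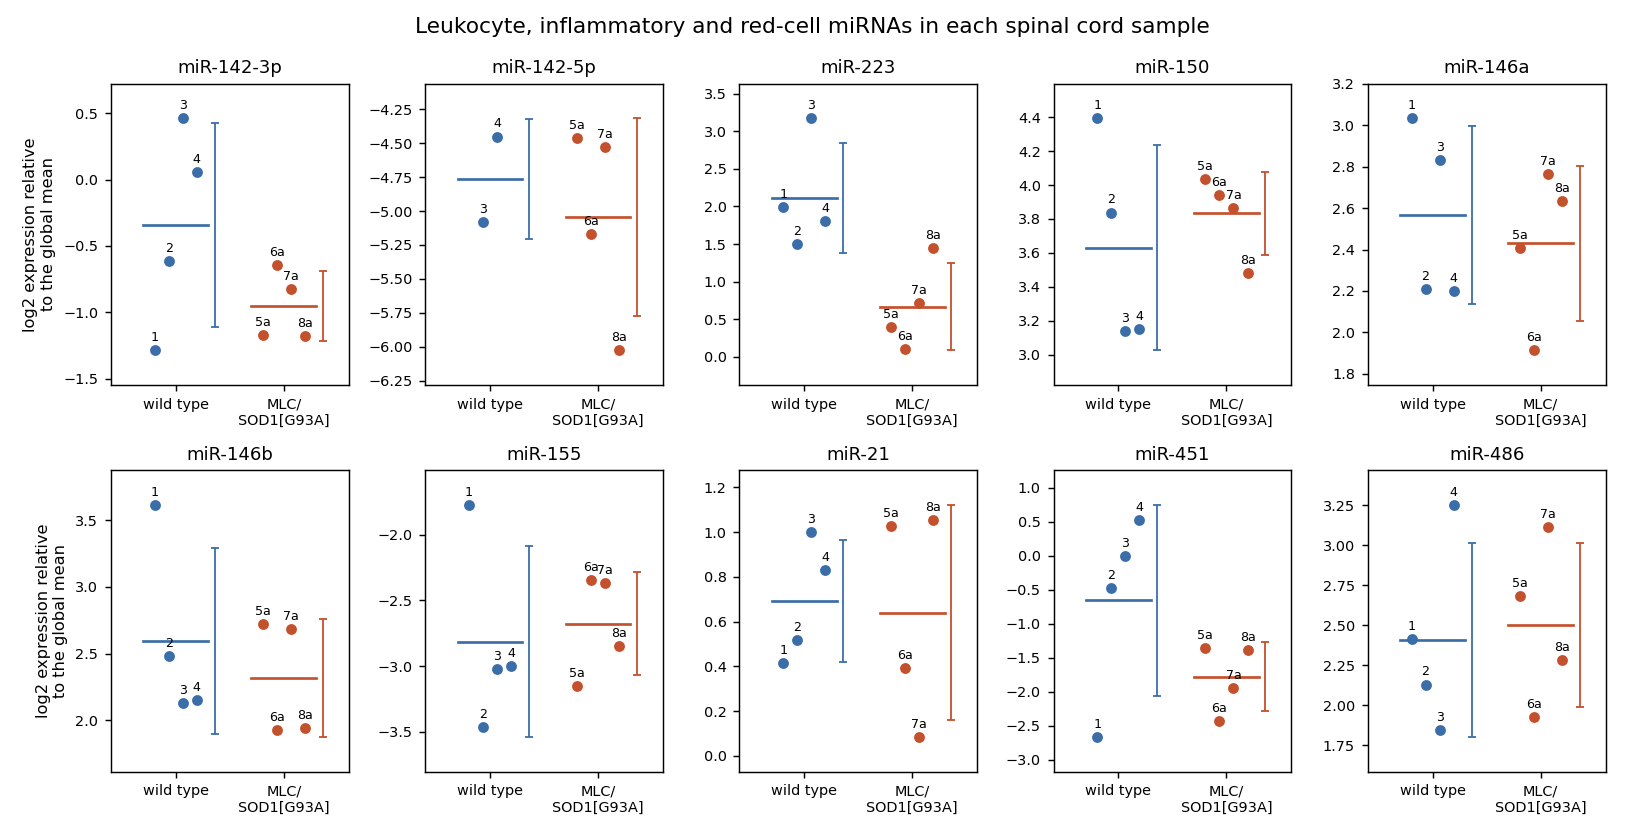
Log2 expression relative to the global mean of each member miRNA in wild type (blue) and MLC/SOD1[G93A] (red) samples; points are single samples with their numbers, horizontal lines group means, and the bars beside them 1 SD. The 4 MLC/SOD1[G93A] values of miR-223 lie between 0.10 and 1.45, all below the wild type range of 1.5 to 3.17, while the groups overlap for the other 9 miRNAs.

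The other myeloid assays gave smaller and less certain differences. miR-142-3p relative to the global mean was at -1.29, -0.61, 0.46 and 0.06 in wild type samples 1 to 4 and at -1.17, -0.65, -0.83 and -1.18 in samples 5a to 8a. Wild type 3 and 4 stood above all others, while wild type 1 was the lowest of the 8. The difference was -0.61 (SE 0.37, 95% interval -1.45 to 0.23, limma adjusted p = 0.637, exact permutation p = 0.229) and -0.96 relative to U6 (adjusted p = 0.975). With wild type 1 left out it was -0.92 relative to the global mean (limma adjusted p = 0.182) and -1.68 relative to U6 (adjusted p = 0.118), and with wild type 3 left out -0.34 and -0.47. Its raw Ct was nearly the same in the MLC/SOD1[G93A] samples, 29.45 to 29.95, and spread from 27.65 to 30.29 in wild type.

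miR-142-5p, the other arm of the same hairpin, was at the edge of detection. Its Ct was undetermined in wild type 1, 36 in wild type 2, 33.19 in wild type 3 and 32.47 in wild type 4. The 4 MLC/SOD1[G93A] samples gave 33.24, 34.04, 33.22 and 34.30. With 2 measured wild type samples it was not tested, and its mean relative to the global mean was -4.76 in those 2 and -5.04 ± 0.73 (SD, n = 4) in MLC/SOD1[G93A]. Within wild type, the 2 samples without a measured 5p arm were those with the lower miR-142-3p level.

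miR-150, the lymphocyte miRNA, hardly varied in raw Ct. It read 24.61, 24.64, 24.97 and 24.87 in wild type samples 1 to 4 and 24.74, 24.93, 24.83 and 24.79 in samples 5a to 8a. That range of 0.36 cycles was the second smallest among the 190 miRNAs measured in every sample, whose median range was 1.55 cycles. Once set against a reference it took on the spread of that reference, so that relative to the global mean wild type ran from 3.14 to 4.39 and MLC/SOD1[G93A] from 3.48 to 4.04. The difference was 0.20 (SE 0.32, 95% interval -0.51 to 0.92, limma adjusted p = 0.955) relative to the global mean and -0.15 relative to U6.

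None of the 4 inflammatory miRNAs differed past the spread between samples on either scale. miR-146a and miR-146b, which share a seed and dampen signalling through Toll-like receptors, were read by separate assays. miR-146a relative to the global mean was at 3.03, 2.21, 2.83 and 2.20 in wild type and at 2.41, 1.91, 2.76 and 2.63 in MLC/SOD1[G93A], a difference of -0.14 (SE 0.29, 95% interval -0.80 to 0.52, limma adjusted p = 0.964). miR-146b was at 3.61, 2.48, 2.13 and 2.15 in wild type and at 2.72, 1.92, 2.68 and 1.94 in MLC/SOD1[G93A], a difference of -0.28 (SE 0.38, 95% interval -1.13 to 0.57, limma adjusted p = 0.955). For both, wild type 1 was the highest sample and 6a the lowest, and the groups overlapped. In raw Ct the 2 groups of miR-146b just failed to overlap, at 25.39 to 26.00 in wild type and 26.01 to 26.95 in MLC/SOD1[G93A]. They overlapped relative to U6 and to the global mean. The global mean Ct was itself 0.25 cycles later in MLC/SOD1[G93A] (exact permutation p = 0.371). The share of all miRNAs whose groups were apart in raw Ct is not given.

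miR-155, made from its non-coding host gene in activated macrophages and lymphocytes, was a late assay. Relative to the global mean it was at -1.78, -3.46, -3.02 and -3.0 in wild type and at -3.15, -2.35, -2.37 and -2.85 in MLC/SOD1[G93A]. Wild type 1 alone stood above the MLC/SOD1[G93A] samples and wild type 2 was below them all. The difference was 0.14 (SE 0.38, 95% interval -0.71 to 0.98, limma adjusted p = 0.978). miR-21, which is induced in reactive glia and many other cells, was at 0.41, 0.52, 1.0 and 0.83 in wild type and at 1.03, 0.39, 0.08 and 1.05 in MLC/SOD1[G93A]. Its difference was -0.05 (SE 0.29, 95% interval -0.70 to 0.60, limma adjusted p = 0.978), the one nearest 0 among the members. Relative to U6, miR-155 and miR-21 differed by -0.21 and -0.40.

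**Figure D2:**
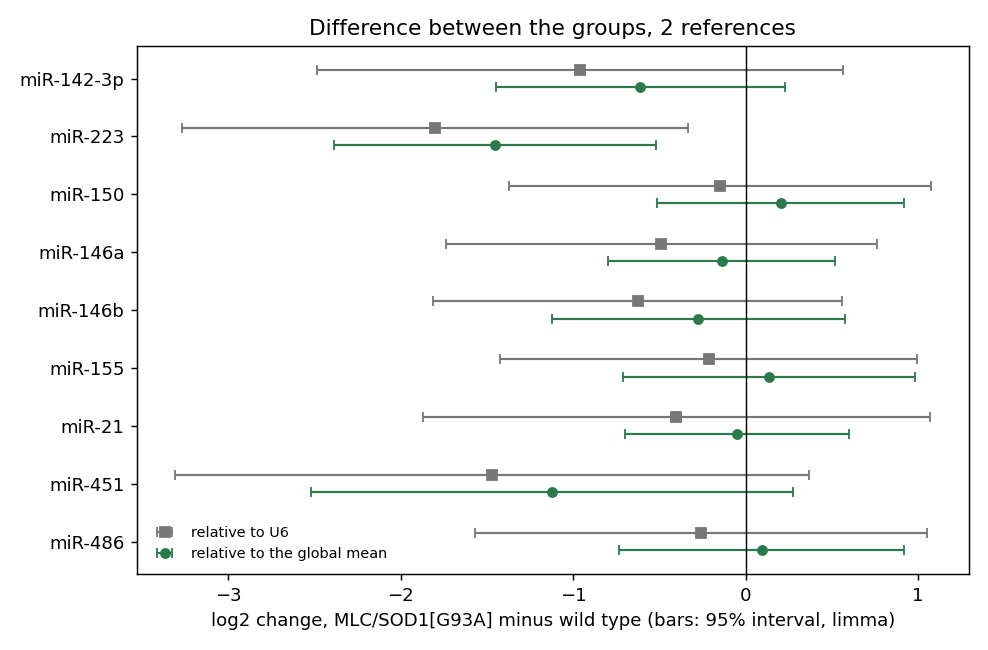
Difference in log2 expression, MLC/SOD1[G93A] minus wild type, of the 9 tested miRNAs relative to U6 (grey squares) and to the global mean (green circles), with 95% intervals from limma (n = 4 per group). The intervals of miR-223 lie below 0 on both scales, at -3.27 to -0.33 and at -2.38 to -0.52, and those of the other 8 miRNAs include 0.

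Neither red-cell miRNA differed between the groups past the spread between samples. miR-451, which is cut from its hairpin by Argonaute 2 in maturing red cells, was at -2.67, -0.48, 0.00 and 0.52 relative to the global mean in wild type and at -1.35, -2.43, -1.95 and -1.39 in MLC/SOD1[G93A]. Wild type 2, 3 and 4 were above all MLC/SOD1[G93A] samples and wild type 1 below them all. The difference was -1.12 (SE 0.62, 95% interval -2.52 to 0.28, limma adjusted p = 0.635, exact permutation p = 0.171) and -1.47 relative to U6 (adjusted p = 0.975). Without wild type 1 the difference relative to U6 was -2.55 with an adjusted p of 0.0235, and relative to the global mean it was -1.79 with an adjusted p of 0.0941. Without wild type 4 the differences were -0.92 (adjusted p = 0.997) and -0.73 (adjusted p = 0.883).

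miR-486 was at 2.41, 2.13, 1.84 and 3.25 in wild type and at 2.68, 1.92, 3.11 and 2.28 in MLC/SOD1[G93A], again relative to the global mean. The groups were interleaved, and the difference was 0.09 (SE 0.37, 95% interval -0.73 to 0.92, limma adjusted p = 0.978). Across the 8 samples the raw Ct of miR-451 ranged over 4.17 cycles, that of miR-223 over 3.83 cycles and that of miR-486 over 2.18 cycles. miR-451 and miR-223 thus stood at positions 185 and 182 of 190 when miRNAs were ordered from the smallest range, and miR-486 at position 140.

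After these values were seen, miR-223 was also set against each other member on the same card, as the Ct of that member minus the Ct of miR-223, which needs no reference. These values are given with no test. The mean was lower in MLC/SOD1[G93A] mice against all 8 partners measured in every sample, with differences of -1.65 to -0.33 cycles. The partners share the same miR-223 readings, and each value is the difference of miR-223 minus that of the partner. Since miR-223 had the most negative difference of the members tested, all 8 signs were fixed in advance. The groups were apart against 2 of the 8. The same share over the other miRNAs of the card is not given, so this count is a description only. Against miR-21 the value was 0.98 to 2.17 in wild type and -0.63 to 0.63 in MLC/SOD1[G93A], a difference of -1.40. Against miR-146a it was -1.04 to 0.34 and -2.05 to -1.18, a difference of -1.31. Groups that are apart cannot come to overlap when a sample is left out. The differences then ran from -1.60 to -1.15 against miR-21 and from -1.51 to -1.05 against miR-146a.

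Against the other partners the groups overlapped. The difference was -1.65 for miR-150, -1.59 for miR-155, -1.54 for miR-486, -1.18 for miR-146b and -0.84 for miR-142-3p. It was nearest 0 against miR-451, where the value was 2.78 ± 1.48 in wild type and 2.45 ± 0.48 in MLC/SOD1[G93A] (SD, n = 4 each), a difference of -0.33. Its sign there rested on wild type 1, and without that sample the difference was 0.30. The card thus did not separate the difference of miR-223 from that of miR-451. Leaving out 1 sample also took the difference against miR-486 to -1.0 without wild type 3, that against miR-146b to -0.67 without wild type 3 and that against miR-142-3p to -0.57 without wild type 1 and -0.55 without sample 6a. Whether the miR-451 level had a part in the miR-223 difference was not tested.

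**Figure D3:**
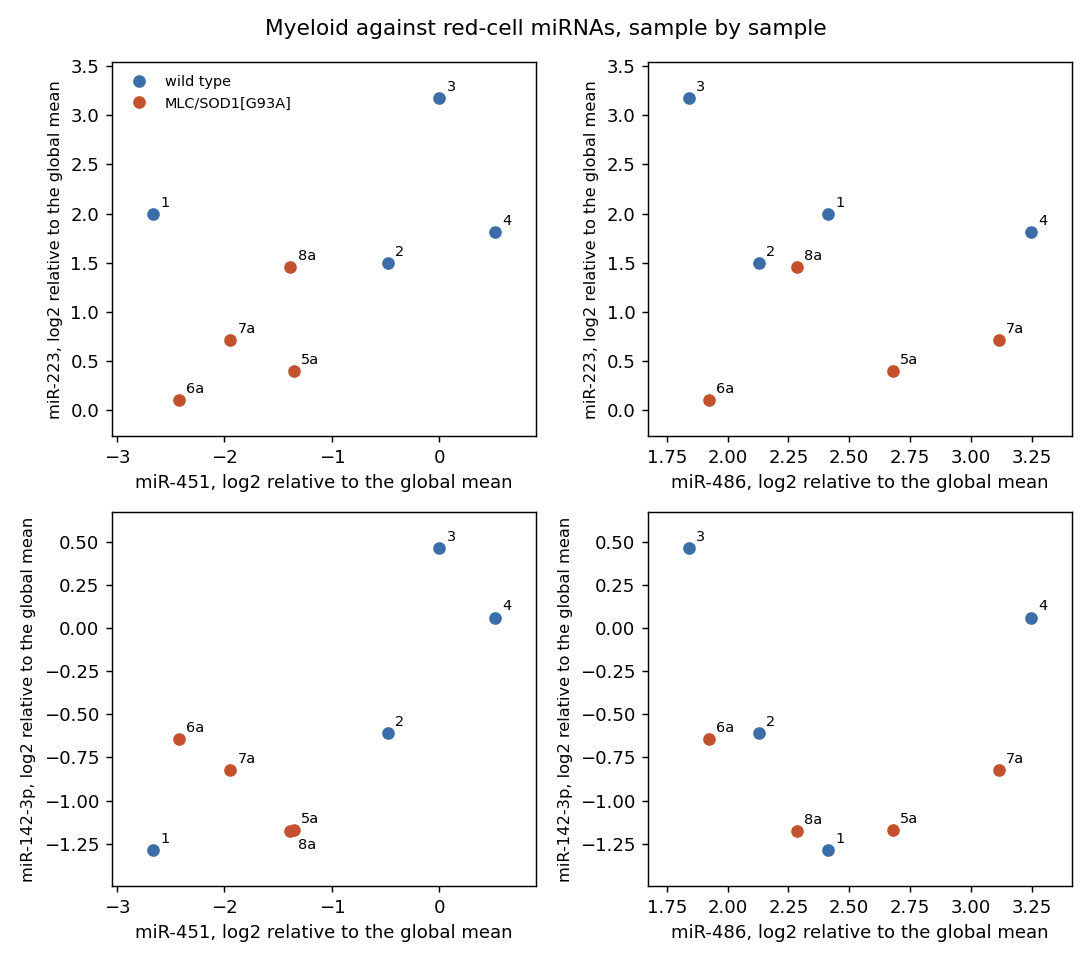
Log2 expression relative to the global mean of miR-223 (top) and miR-142-3p (bottom) against miR-451 (left) and miR-486 (right); each point is 1 sample with its number, wild type in blue and MLC/SOD1[G93A] in red. Wild type 3 and 4 lie farthest to the right against miR-451. They are also the highest for miR-142-3p, while for miR-223 wild type 4 (1.81) lies below wild type 1 (1.99). The points show no common slope against miR-486.

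Whether the myeloid miRNAs followed the red-cell miRNAs from sample to sample was asked relative to the global mean in 6 pairs. miR-142-3p followed miR-451 most closely (n = 8, Pearson r = 0.76, exact permutation p = 0.0272, 0.163 adjusted over the 6 pairs; Spearman rho = 0.76, exact permutation p = 0.0368, 0.221 adjusted). Without wild type 3 and 4, the 2 samples farthest from the median of miR-451, r was 0.29 over a narrower range of miR-451, while without wild type 3 alone it was 0.72 and without wild type 4 alone 0.69. With each value taken relative to its group mean, r was 0.67 (exact permutation within groups, p = 0.226).

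For miR-223 with miR-451, r was lower (n = 8, r = 0.54, exact permutation p = 0.170, adjusted 0.340), and rho was 0.38 (exact permutation p = 0.360, adjusted 0.540). Its r was 0.10 without wild type 3 and 4 and 0.24 relative to the group means. Wild type 1 departed from the rest, with the lowest miR-451 level of all samples and the second highest miR-223 level. Without it r was 0.80. No relation with miR-486 was detected for either (n = 8, miR-223 r = -0.23, rho = -0.12; miR-142-3p r = -0.11, rho = -0.26; exact permutation p of r 0.589 and 0.804, adjusted 0.804 for both). For these, r without wild type 4 and sample 7a was -0.37 and -0.81 (n = 6, exact permutation p = 0.487 and 0.0389, not adjusted). miR-142-5p was measured in 6 samples, and its r was 0.22 with miR-451 (exact permutation p = 0.674, adjusted 0.804) and 0.63 with miR-486 (exact permutation p = 0.156, adjusted 0.340), with rho of 0.60 and 0.71.

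Nor was a relation detected between the 2 red-cell miRNAs (n = 8, r = 0.15, exact permutation p = 0.720; rho = 0.07, exact permutation p = 0.882). This pair was among 4 within a class that were added after the values were seen. The others were miR-142-3p with miR-223, with r = 0.58, which became -0.41 without wild type 3 and 4, miR-146a with miR-146b, with r = 0.59, and the 2 miR-142 arms, with r = 0.22 over 6 samples, and the adjusted exact permutation p over the 4 pairs was 0.27 to 0.72.

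On the other scales r was higher. For miR-142-3p with miR-451 it was 0.93 relative to U6 and 0.89 in raw Ct (n = 8, unadjusted exact permutation p = 0.00238 and 0.00303), and for miR-223 with miR-451 it was 0.82 and 0.73 (n = 8, unadjusted exact permutation p = 0.0123 and 0.0401). All 6 pairs had r between 0.52 and 0.93 relative to U6. Other miRNAs of the card also correlated with miR-451 on these scales. The r of miR-451 with the 189 other miRNAs measured in all samples had a median of 0.80 on the U6 scale and 0.64 in raw Ct, but 0.02 on the global mean scale. On the U6 scale every miRNA of a sample is set against the same U6 mean, so the error of that mean is shared by all of them. Its part in r was not tested, nor was what the miRNAs of 1 sample share in raw Ct. On the global mean scale, 34 of the 189 had a higher r with miR-451 than miR-223 had, and 15 a higher r than miR-142-3p. With miR-486, 130 had a higher r than miR-223 and 109 a higher r than miR-142-3p. These counts describe the card and are no test.

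**Figure D4:**
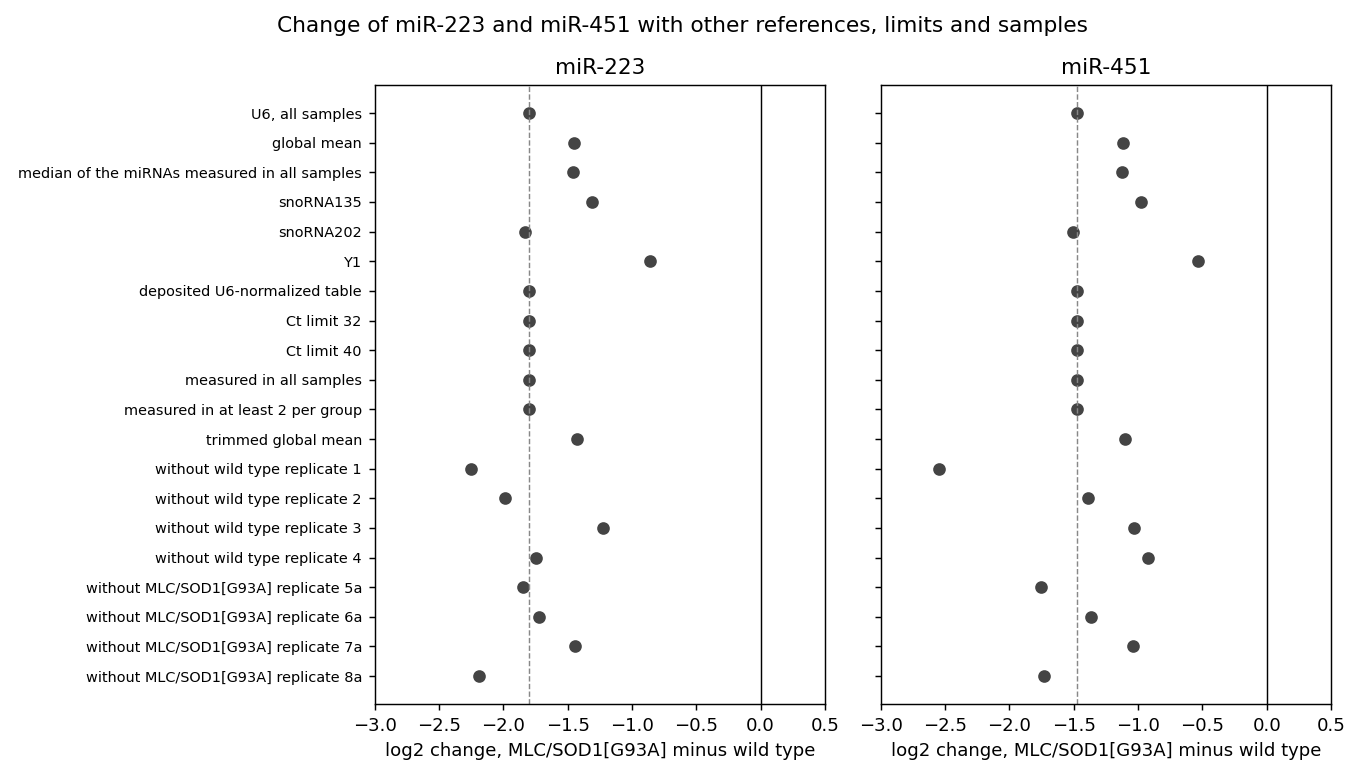
Difference in log2 expression of miR-223 (left) and miR-451 (right), MLC/SOD1[G93A] minus wild type, under each reference, Ct limit, filter and left-out sample; the dashed line marks the value relative to U6 with all samples and the solid line 0. All 20 values of miR-223 lie between -2.25 and -0.86 and all 20 of miR-451 between -2.55 and -0.53.

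A list of other blood and immune miRNAs was read beside the members. Of miR-144, miR-16, miR-92a, miR-25, miR-342-3p, miR-147 and miR-126-3p, 6 were on the card and 5 could be tested. miR-144, which shares a primary transcript with miR-451, had no assay among those analysed, and miR-147 had no Ct of 35 or less. None of the 5 had an unadjusted limma p under 0.05 on either scale. Their differences relative to the global mean ran from -0.42 for miR-92a to 0.22 for miR-25, with a median of 0.01. Relative to U6 the median was -0.34, beside -0.31 for all miRNAs tested.

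Markers of neural tissue were present in every sample, as were those of muscle and endothelium. Of the neuronal miR-124, miR-9 and miR-128a and the oligodendrocyte miR-219, miR-338-3p and miR-138, all 6 were measured in all 8 samples, with Ct of 21.19 to 31.76. Their median differences relative to the global mean were -0.12 for the neuronal and -0.11 for the oligodendrocyte list. The oligodendrocyte markers went both ways, with miR-338-3p at -0.80, miR-219 at -0.11 and miR-138 at 0.44. miR-338-3p alone among the 6 had an unadjusted limma p under 0.05 (limma adjusted p = 0.515). Of all 227 miRNAs tested on that scale, 13 were lower and 8 higher at such a p. The muscle miRNAs miR-1, miR-133a and miR-133b were also measured in all samples, with a mean level relative to the global mean of 1.41 to 1.97 in wild type and 0.91 to 2.49 in MLC/SOD1[G93A], none past an unadjusted p of 0.05. The endothelial miR-126-3p and miR-126-5p were likewise present throughout, at 4.56 to 5.09 in wild type and 4.35 to 4.78 in MLC/SOD1[G93A]. The mean level of miR-451 and miR-486 together was -0.13 to 1.88 in wild type and -0.25 to 0.66 in MLC/SOD1[G93A], and its part in the other differences was not tested.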

How the data were processed

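Cards of 4 wild type and 4 MLC/SOD1[G93A] samples were analysed, each run on 600 ng of reverse transcribed total RNA. The authors deposited Ct values of each well and, in another table, values on a log2 scale as Ct minus the mean U6 Ct, where higher means less miRNA. Their table of group fold changes was not used, since it holds their own comparison. In their methods both global mean and U6 normalization are named, Ct over 35 was dropped, and so were miRNAs missing in 2 or more samples of a group. Here the same limits were applied to the Ct values and log2 expression was computed as the reference Ct minus the miRNA Ct. Groups were compared by limma 3.58.1 (lmFit and eBayes, R 4.3.3) over 227 miRNAs with Benjamini-Hochberg adjustment, and single values by exact permutation over the 70 ways to split 8 samples. The limma fit was first run on simulated data with independent errors at the spread of the global mean scale. Those data held no error shared within a sample, so they do not bear on the U6 scale. Correlations were tested by exact permutation of the 40320 pairings of 8 samples, or of the 576 within groups. The labels do not tie the columns 5a to 8a to single samples of their group, and nothing ties a column to 1 mouse, so p-values measure the spread between these samples. Members were named by a fixed list and all 10 are reported; further miRNAs were named as listed markers or as blood and immune miRNAs. Members and lists were chosen with earlier results of these data known. No depth exists for Ct values, and the number of cards limits the precision. Alternatives were other references (global mean, median, snoRNA135, snoRNA202, Y1), the deposited log2 table with its sign turned, Ct limits of 32 and 40, filters on measured samples, other tests and each sample left out. A global mean without the 2 miRNAs that had a well in sample 8a over 4 cycles below every other sample was added after the data were seen, as were the values of miR-223 against other members.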

Additional observations from a re-analysis of the deposited data

How the results depend on the processing

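miR-223 was lower in MLC/SOD1[G93A] mice under all 20 settings relative to U6 or another reference (-2.25 to -0.86, adjusted limma p 0.0348 to 0.998) and all 9 relative to the global mean (-1.71 to -1.10, adjusted p 0.157 to 0.755), with an unadjusted p under 0.05 in 17 and 9. Leaving out 1 sample gave 0 to 2 members past the adjusted threshold relative to U6, 0 to 3 at an unadjusted p under 0.05 (miR-223, miR-451 and miR-142-3p without wild type 1, 0 without wild type 3 or 7a), and 1 to 3 relative to the global mean (the same 3 miRNAs without wild type 1). The count at an unadjusted p under 0.05 was 3 with snoRNA202, 0 with Y1, and 0 by the exact permutation and exact Mann-Whitney tests relative to U6. The share of all miRNAs tested is not given for these settings or for left-out samples. Those counts therefore describe the settings and are no result about the members as a set. Members with small differences changed sign with the reference, which adds 1 amount to all miRNAs of a sample. The difference of miR-150, miR-155 and miR-486 was 0.20, 0.14 and 0.092 with the global mean, 0.20, 0.13 and 0.088 with the median of the miRNAs measured in all samples, 0.22, 0.16 and 0.11 with the global mean without the 2 miRNAs, 0.34, 0.28 and 0.23 with snoRNA135 and 0.79, 0.72 and 0.68 with Y1. With snoRNA135, miR-146a and miR-21 were at 0.0025 and 0.09. With Y1, miR-146a, miR-146b and miR-21 were at 0.45, 0.31 and 0.54, and the median of the members was 0.45. Leaving out 1 sample moved the difference relative to U6 of miR-150 to -0.36 to 0.21, miR-155 to -0.43 to 0.055, miR-21 to -0.90 to 0.16 and miR-486 to -0.66 to 0.18. Relative to the global mean the ranges were -0.26 to 0.034 for miR-146a, -0.43 to 0.065 for miR-146b, -0.079 to 0.48 for miR-155, -0.19 to 0.13 for miR-21 and -0.11 to 0.37 for miR-486. Leaving out 1 sample moved r from 0.37 to 0.80 for miR-223 with miR-451 (0.80 without wild type 1), 0.69 to 0.85 for miR-142-3p with miR-451, -0.57 to 0.20 for miR-223 with miR-486 and -0.56 to 0.38 for miR-142-3p with miR-486, the highest of both miR-486 pairs without wild type 3. Relative to U6 and with no reference, r of miR-142-3p with miR-451 was 0.93 and 0.89, r of miR-223 was 0.82 and 0.73 with miR-451 and 0.52 and 0.30 with miR-486, and r of miR-142-3p with miR-486 was 0.74 and 0.46. The r of miR-142-3p was 0.29 with miR-451 and -0.81 with miR-486 without the 2 farthest samples, and 0.67 with miR-451 relative to the group means. The r of miR-142-5p was -0.079 with miR-451 at a Ct limit of 40 and 0.80 with miR-486 relative to U6. No paired analysis was made, since the labels name no pairs of samples between the groups. The transgenic columns, headed 5a to 8a, also do not carry the replicate numbers of their labels. A Ct gives no counting depth, and the late assays of miR-142-5p and miR-155 lie nearest the Ct limit.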
